A study of Mus musculus with 12 samples.

Results

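Imprinted genes are read mainly from 1 of the 2 parental copies, and many of them set the growth of the fetus and placenta. The genes described here were 10 such genes that are active in fetal liver: *H19*, *Igf2*, *Dlk1*, *Meg3*, *Peg3*, *Plagl1*, *Cdkn1c*, *Grb10*, *Mest* and *Ndn*. They were matched by symbol among 16985 listed genes, and all 10 were listed. The set was proposed because *H19* stood far above normal liver in these tumors, so it was selected on values of the comparison between tumors and normal liver, and that comparison is given below as a description with no test.

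The study sequenced RNA of 12 mice in 4 groups of 3. Normal livers came from wild-type C57BL/6 mice, which received neither plasmids nor a drug. The 9 tumors were c-MYC/MCL1/RictorKOTsc2KO hepatocellular carcinomas, raised by hydrodynamic tail vein injection of plasmids for c-MYC, MCL1 and Cre into mice whose *Rictor* and *Tsc2* genes were floxed on both copies (Rictor fl/fl, Tsc2 fl/fl), so that only cells that took up the plasmids lost *Rictor* and *Tsc2*. All 3 tumor groups therefore carried the same oncogenes and deletions. Per the labels, from 6 days after injection the mice were gavaged 6 days a week for 3 weeks with vehicle, with MLN0128 at 1 mg/kg/day, which blocks the mTOR kinase in both of its complexes, or with everolimus at 1 mg/kg/day, a rapamycin analog that acts on mTORC1, and they were killed 3.7 weeks after injection. The sources differ on this point, since a treatment of 3 days is also given for the sequenced tumors, so the drug comparisons below are of a treatment whose length is not settled here. Normal liver differed from the vehicle tumors in genotype, injection and gavage at once, and these cannot be told apart. Nothing in the sources used here says whether the 3 mice of a group shared a litter or a day, so p-values measure the spread between these mice.

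At an imprinted locus, DNA methylation laid down in a parent's germ cells marks 1 copy, and the mark is kept through later divisions. *H19* and *Igf2* share enhancers: an insulator bound by CTCF on the maternal copy directs them to *H19*, a noncoding RNA, and on the methylated paternal copy they reach *Igf2*, a fetal growth factor. Several members are abundant in fetal liver and are turned down soon after birth. The FPKM (fragments per kilobase of exon, scaled to the size of the library) do not separate the parental copies, so every value below is the sum over both.

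In GRCm38, 5 of the 10 genes lie on chromosome 7. *H19* (ENSMUSG00000000031.16, minus strand, 142575529 to 142578143) and *Igf2* (ENSMUSG00000048583.16, minus strand, 142650766 to 142666816) are separated by 72.6 kb. *Cdkn1c* (ENSMUSG00000037664.13, 143458339 to 143461050) sits further along that chromosome, and *Peg3* (ENSMUSG00000002265.16, 6703892 to 6730431) and *Ndn* (ENSMUSG00000033585.5, 62346569 to 62350262) lie apart from them. *Dlk1* (ENSMUSG00000040856.17, 109452823 to 109463336) and *Meg3* (ENSMUSG00000021268.17, 109541001 to 109571726) are neighbors on chromosome 12. *Mest* (ENSMUSG00000051855.15) is on chromosome 6, *Plagl1* (ENSMUSG00000019817.18) on chromosome 10 and *Grb10* (ENSMUSG00000020176.17) on chromosome 11. *H19* and *Meg3* are annotated as long noncoding RNAs and the other 8 genes as protein coding.

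*H19* and *Igf2* are also hosts of microRNAs, miR-675 in an exon of *H19* and miR-483 in an intron of *Igf2*. Their mature sequences are shown because, of the 10 genes, their hosts differed most between vehicle tumors and liver. Capitals mark the seed, bases 2 to 8, through which a microRNA mainly pairs with its targets, and the sequences are from RefSeq for GRCm38.p6. On the minus strand of chromosome 7, miR-675-5p lies at 142577112 to 142577133, miR-675-3p at 142577078 to 142577099, miR-483-5p at 142654968 to 142654989 and miR-483-3p at 142654932 to 142654952. No pair of the 4 shares a seed, and mature microRNAs were not measured here.
miR-675-5p: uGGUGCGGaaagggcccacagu
miR-675-3p: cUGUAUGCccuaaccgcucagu
miR-483-5p: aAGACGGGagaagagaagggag
miR-483-3p: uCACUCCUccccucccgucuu

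RefSeq promoter windows (300 bases, 250 before a start and 50 after it, GRCm38.p6) were held for 8 of the 10 genes, 15 windows in all, and none was used for *H19* or *Cdkn1c*. They were searched on both strands for the E-box CACGTG, the core site of MYC and MAX dimers, because c-MYC drives these tumors, and for the GC box GGGCGG and the TATA letters TATAAA. No match of 1 motif overlapped a match of another. The E-box was in 1 of the 15 windows, that of *Plagl1*, at position -182 from the start, and it is in 7.15% of all 32851 windows. The GC box was in 8 windows of 5 genes (35.7% of all windows) and TATAAA in 1 window, that of *Meg3*, where it was found at 2 places (13.6% of all windows). The windows below are that of *Plagl1*, 1 of the 2 of *Meg3*, 1 of the 4 of *Igf2*, and that of *Peg3*, which holds none of the 3 motifs and faces the start of *Usp29*. Capitals mark the motifs on either strand. A match describes letters and not binding, and the absence of a motif says nothing of the factor.
*Igf2*, chr7:142657447-142657746, minus strand: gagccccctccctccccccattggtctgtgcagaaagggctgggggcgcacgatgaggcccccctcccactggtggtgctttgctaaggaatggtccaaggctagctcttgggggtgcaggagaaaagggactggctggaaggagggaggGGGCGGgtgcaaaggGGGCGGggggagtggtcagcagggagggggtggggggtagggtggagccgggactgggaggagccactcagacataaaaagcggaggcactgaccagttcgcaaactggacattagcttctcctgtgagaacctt
*Peg3*, chr7:6730370-6730669, minus strand: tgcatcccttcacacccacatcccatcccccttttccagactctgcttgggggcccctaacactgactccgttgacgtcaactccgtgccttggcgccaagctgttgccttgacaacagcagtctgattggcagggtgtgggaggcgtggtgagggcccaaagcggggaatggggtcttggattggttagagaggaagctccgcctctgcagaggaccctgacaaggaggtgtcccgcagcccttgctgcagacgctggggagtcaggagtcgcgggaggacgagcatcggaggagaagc
*Meg3*, chr12:109540746-109541045, plus strand: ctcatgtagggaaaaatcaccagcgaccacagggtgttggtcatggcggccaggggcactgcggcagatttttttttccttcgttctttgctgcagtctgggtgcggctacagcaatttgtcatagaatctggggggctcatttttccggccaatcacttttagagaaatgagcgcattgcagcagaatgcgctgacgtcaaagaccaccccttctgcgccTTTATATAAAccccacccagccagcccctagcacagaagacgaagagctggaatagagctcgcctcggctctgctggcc
*Plagl1*, chr10:13090582-13090881, plus strand: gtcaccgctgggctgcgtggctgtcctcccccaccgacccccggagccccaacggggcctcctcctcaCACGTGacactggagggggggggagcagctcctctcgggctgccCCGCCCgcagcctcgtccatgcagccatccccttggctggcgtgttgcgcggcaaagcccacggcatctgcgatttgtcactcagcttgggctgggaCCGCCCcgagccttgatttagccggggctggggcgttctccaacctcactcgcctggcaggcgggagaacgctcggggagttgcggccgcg

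Read numbers were recovered by multiplying FPKM with exon length and gave 17146553 to 25162348 reads a library; 98.2% to 98.8% of the values under 20 reads came within 0.1 of a whole read. The authors' scaling of the FPKM differed from plain read totals by factors of 0.585 to 0.595 for the livers and 1.10 to 1.37 for tumors. *Rictor* had 1.65 to 2.57 FPKM in livers, 1.05 to 1.5 in vehicle tumors, 1.65 to 2.21 in MLN0128 tumors and 1.58 to 1.93 in everolimus tumors, and *Tsc2* had 4.50 to 5.32, 2.01 to 2.31, 2.81 to 3.96 and 2.78 to 2.87. These are values of the whole gene and not of the floxed exons. MLN0128 replicates 1 and 2 held *Xist* RNA (191 and 155 FPKM) with Y-linked genes near 0, and the other 10 libraries did not. Comparisons with MLN0128 thus also compare mice of different sex. Both libraries belong to the MLN0128 group, so a fit with sex as a covariate leaves MLN0128 replicate 3 as its only MLN0128 value. The 10 male libraries alone leave the same tumor, so these 2 settings are not separate checks of MLN0128. Markers of other liver cells summed to 217 to 260 FPKM in livers and 24.9 to 144 in the tumors for macrophages, 57.0 to 66.9 and 11.6 to 20.6 for endothelium, and 27.7 to 36.8 and 29.7 to 85.1 for mesenchyme, and their part in the differences below was not tested. The sums join markers that went opposite ways. In the vehicle tumors 4 mesenchymal markers lay above all livers, 5 below and 1 overlapped. These counts were 1, 5 and 1 for macrophages and 0, 6 and 2 for endothelium, beside 39.1% above and 35.1% below of all tested genes. The summed FPKM of 8 hepatocyte markers ran from 83274 to 102914 in normal liver and from 1852 to 8008 in the 9 tumors, where *Alb*, the gene of albumin, was still at 482 to 4860 FPKM. In these bulk samples, a lower value can come from fewer cells of a type or from less RNA per cell, and the 2 cannot be told apart.

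*H19* was at a trace in normal liver and at 3010 to 7530 FPKM in the tumors, and *Igf2*, near 0 in liver, was at 33.1 to 94.5 FPKM. The normal livers held 1.39, 1.14 and 0.0390 FPKM of *H19* (37, 31 and 1 reads), and the vehicle tumors 5360, 4840 and 3880 FPKM (755632 reads together). The ratio of normalized reads, vehicle over normal liver, was 5369 (95% interval 4243 to 6901, counting error only).
*H19* took 1.09% to 1.48% of all reads in the vehicle tumors, 1.01% to 1.78% with MLN0128 and 1.52% to 2.07% with everolimus, and at most 0.000204% in normal liver. Every tumor of every group thus lay above every liver, with the least tumor value, 3010 FPKM, in MLN0128 replicate 3.
*Igf2* was listed at 0 FPKM in 2 normal livers and at 0.0162 in the other, where it rested on 1 read. In the vehicle tumors it was at 57.0, 50.5 and 52.2 FPKM, from 20037 reads over the 3 libraries. The read ratio was 9824, with an interval of 1763 to 388059 because of the single read in liver. On the log2(FPKM + 1) scale, which understates the change of genes near 0 in liver, the difference between vehicle tumors and normal liver was 11.38 for *H19* and 5.75 for *Igf2*.

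**Figure D1:**
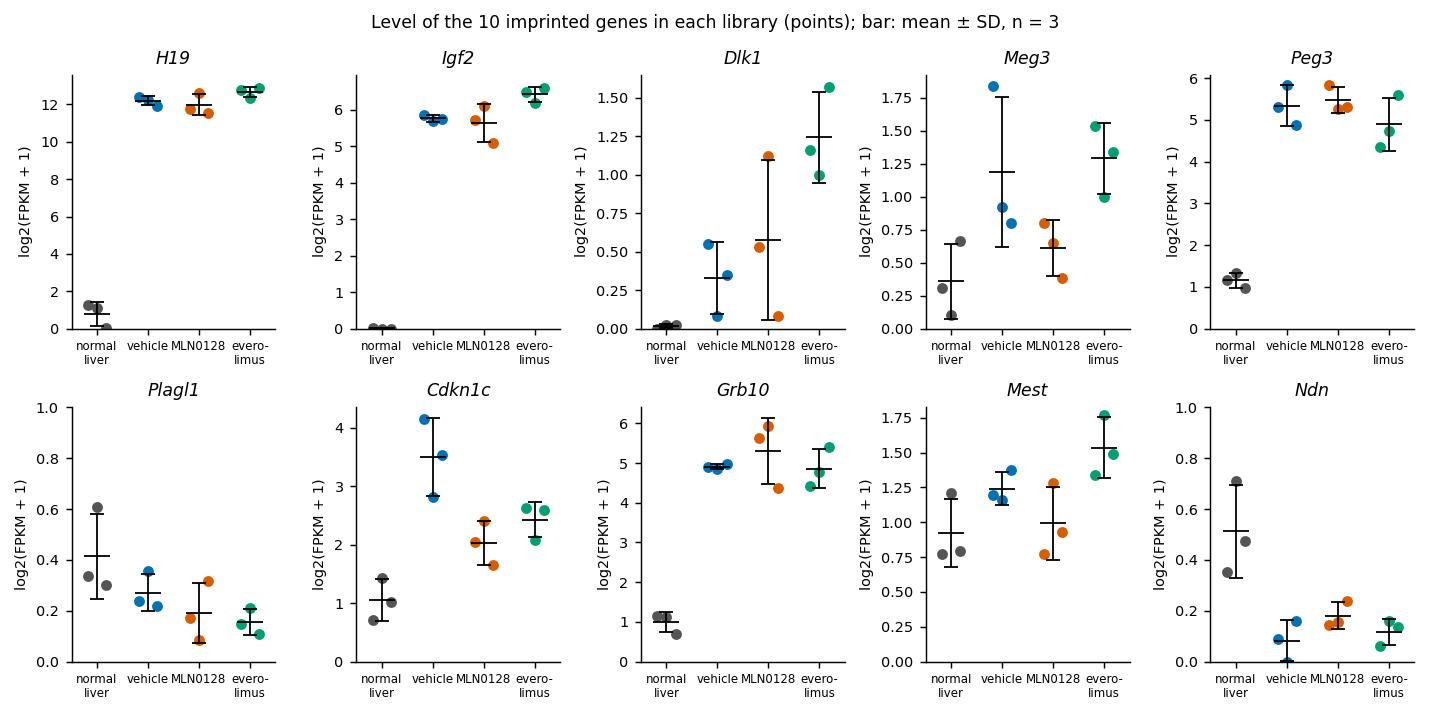
Level of each of the 10 genes as log2(FPKM + 1) on the y axis in the 4 groups of 3 mice on the x axis; points are libraries in order of replicate, and bars give the mean ± SD of 3. *H19*, *Igf2*, *Peg3*, *Grb10*, *Cdkn1c* and *Dlk1* lay above normal liver in all 9 tumors, *Ndn* lay below it in all 9, and *Meg3*, *Mest* and *Plagl1* overlapped it. The y axes differ between genes.

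Across the tumors *H19* and *Igf2* kept a narrow ratio. *H19* over *Igf2* in FPKM ran from 68.0 in MLN0128 replicate 1 to 95.8 in vehicle replicate 2, while *H19* itself ran from 3010 to 7530 FPKM and *Igf2* from 33.1 to 94.5. Over the 9 tumor libraries, which share 3 groups and a depth and scaling per library, Pearson's r of their log2(FPKM + 1) was 0.920. Both were least in MLN0128 replicate 3 and greatest in everolimus replicate 3.
By the same measure over 6764 tested genes with a mean of at least 5 FPKM in the tumors, the genes most like *H19* included *Stoml2* (r = 0.962) and *Mettl23* (0.955), and *Igf2* came at rank 15. The 3 most like *Igf2* were *Smad9* (0.972), *Arhgap42* (0.963) and *Smim10l1* (0.953), with *H19* at rank 19. *Stoml2* ran from 27.3 to 37.2 FPKM over the tumors and *Smad9* from 5.16 to 13.1.
Among the genes nearest to *H19* and *Igf2*, those that overlap *Igf2* shared its difference and *Mrpl23* did not. *Gm33148*, 13.6 kb from *H19* and apart from *Igf2*, also lay above liver in all 9 tumors, at a low level. It was at 0 FPKM in liver and at 0.00594 to 0.403 in the tumors, from 0 reads in the livers and 20 in the vehicle tumors. *Mrpl23*, a mitochondrial ribosomal protein gene 34.8 kb from *H19*, was at 7.71 to 8.30 FPKM in normal liver and 5.28 to 6.40 in the vehicle tumors. *Igf2os* and *Mir483*, which overlap *Igf2*, were at 0 to 0.0180 and 0 FPKM in liver and at 4.42 to 6.68 and 5.88 to 14.1 in the vehicle tumors, but the counting is not stated to use strand, so reads of *Igf2* and of its overlapping genes cannot be told apart.

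**Figure D2:**
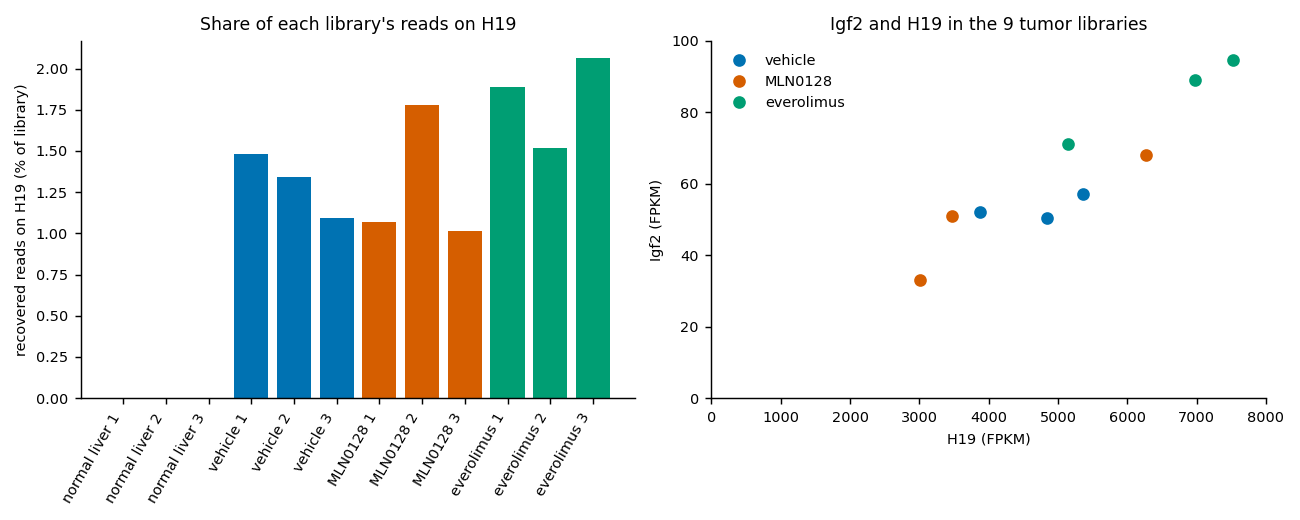
Left, share of each library's recovered reads that fell on *H19*, in percent, with 1 bar per library. Right, *Igf2* against *H19* in FPKM, with 1 point per tumor library. The share was at least 1.01% in every tumor, and the tumor with the most *H19* (7530 FPKM) also had the most *Igf2* (94.5 FPKM).

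*Peg3*, a paternally expressed zinc finger gene, came next after *Igf2* in the vehicle tumors. Its FPKM were 1.23, 1.51 and 0.971 in the livers and 38.6, 56.3 and 28.3 in the vehicle tumors, a ratio of means of 33.2. With MLN0128 it was at 55.6, 37.6 and 38.3 FPKM and with everolimus at 19.4, 25.7 and 46.9. All 9 tumors lay above the livers and the 3 tumor groups overlapped each other.
*Usp29*, a deubiquitinase gene that starts 0.1 kb from *Peg3* in the opposite direction, was at a low level and moved with it. *Peg3* over *Usp29* in FPKM ran from 81.6 to 104 in the 9 tumors, although *Peg3* itself ran from 19.4 to 56.3. *Zim1*, a maternally expressed neighbor 7.4 kb away, was at 0 to 0.0119 FPKM in liver and 0.877 to 2.36 in the vehicle tumors, from 1 read and 723 reads.

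*Grb10* and *Cdkn1c* lay higher in the tumors as well. *Grb10*, an adaptor that dampens insulin and IGF1 receptor signaling and is a substrate of mTORC1, had 1.2, 1.19 and 0.622 FPKM in the livers and 28.7, 28.0 and 30.4 in the vehicle tumors, a ratio of means of 28.9. It was at 48.3, 59.9 and 19.7 FPKM with MLN0128, where the 2 libraries with *Xist* lay above every vehicle tumor and the other below, and at 20.4, 26.3 and 41.1 with everolimus. *Cdkn1c*, the cyclin-dependent kinase inhibitor p57, was at 0.637, 1.69 and 1.03 FPKM in liver and at 16.8, 6.05 and 10.6 in the vehicle tumors, a ratio of means of 9.96. All 9 tumors lay above the livers for both genes.
The genes around *Cdkn1c* did not move as a block. *Phlda2*, a maternally expressed gene that limits placental growth and lies 40.5 kb away, was at 0 to 0.414 FPKM in liver and 12.8 to 17.4 in the vehicle tumors. *Slc22a18*, 12.7 kb away, was lower in the vehicle tumors (13.4 to 19.8 FPKM) than in liver (47.2 to 50.4), and *Kcnq1* overlapped between the groups.

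The *Dlk1* to *Meg3* domain stayed low. *Dlk1*, a transmembrane Notch-like protein of hepatoblasts and other fetal cells, was at 0, 0.0160 and 0.0169 FPKM in liver and at 0.462, 0.0587 and 0.273 in the vehicle tumors. These values rested on 2 reads in the livers and 99 in the vehicle tumors, a read ratio of 24.3 with an interval of 6.54 to 203. *Meg3*, the maternally expressed noncoding RNA of the domain, was at 0.236, 0.0752 and 0.588 FPKM in liver and at 2.57, 0.897 and 0.740 in the vehicle tumors, so that the 3 vehicle tumors lay above the livers but the 9 tumors overlapped them.
The oppositely imprinted pair did not keep a fixed ratio. *Dlk1* over *Meg3* in FPKM ran from 0.0654 in vehicle replicate 2 to 2.05 in MLN0128 replicate 2, whereas *Meg3* over *Rian*, a noncoding RNA 32.2 kb away and read from the same parental copy, ran from 0.602 to 1.38 over the 9 tumors. The 3 genes whose pattern over the tumors was most like that of *Dlk1* were *Ppp1r3b* (r = 0.945), *Atp7b* (0.943) and *Erlin1* (0.941), and *Igf2* came at rank 9 (0.918).

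The other 3 genes did not stand clear above normal liver in the vehicle tumors. *Mest*, a hydrolase-like gene read from the paternal copy, was at 0.705, 1.31 and 0.729 FPKM in liver and at 1.29, 1.23 and 1.59 in the vehicle tumors, which overlapped. *Plagl1*, a zinc finger transcription factor, was at 0.261, 0.522 and 0.233 FPKM in liver and at 0.179, 0.279 and 0.165 in the vehicle tumors, which overlapped too. *Ndn*, which codes for necdin, was at 0.276, 0.638 and 0.389 FPKM in liver and at 0.0632, 0 and 0.116 in the vehicle tumors, from 52 and 15 reads.
*Ndn* was thus the member that lay lower in tumors, with a read ratio of 0.141 (interval 0.0740 to 0.255) and no overlap with any of the 9 tumors. The tumors of the drug groups ran from 0.0600 to 0.246 FPKM for *Plagl1* and from 0.0430 to 0.181 for *Ndn*, and from 0.705 to 2.41 for *Mest*. With everolimus *Mest* (1.53 to 2.41 FPKM) lay above all livers and *Plagl1* (0.0770 to 0.156) below them, and with MLN0128 both overlapped the livers.

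In normal liver the order of mean levels per length was *Peg3*, *Cdkn1c*, *Grb10*, *Mest*, *H19*, *Ndn*, *Plagl1* and *Meg3*, each overlapping the next, then *Dlk1* and *Igf2*. In the vehicle tumors *H19* (4693 ± 751 FPKM, SD, n = 3) came first without overlap, followed by *Igf2* (53.2 ± 3.37), *Peg3* (41.1 ± 14.2) and *Grb10* (29.0 ± 1.23), of which neighbors overlapped. *Cdkn1c* (11.2 ± 5.4) stood clear of *Grb10* above it and *Meg3* below it. The same 4 genes led with both drugs, and with everolimus *Igf2* (84.9 ± 12.2 FPKM) was also clear of *Peg3* (30.7 ± 14.4).
A gene was tested if 3 or more of the 12 libraries reached 0.5 FPKM, which 14379 genes and 8 of the 10 members did. *Plagl1* and *Ndn* had 1 library each at that level, and *Dlk1* did so through 4 libraries that were all of the drug groups, so no count over the 8 is support for a pattern of the set. Of the 8, 7 lay above all normal livers in all 3 vehicle tumors, and among all tested genes 39.1% lay above and 35.1% below. In all 9 tumors 6 of the 8 lay above, beside 29.6% of all tested genes above and 28.6% below. The median difference in log2(FPKM + 1) was 3.18 over the 8 and 0.06 over all tested genes.

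In each drug comparison 1 member passed the test, a different one each time. With MLN0128 *Cdkn1c* was lower than with vehicle, with everolimus *Dlk1* was higher, and between the drugs *Igf2* was lower with MLN0128. *Dlk1* entered the tests through the 3 everolimus tumors and MLN0128 replicate 2, so that the group in which it is high also admitted it, and its value with everolimus is better read as a description. These comparisons share libraries: both drugs were set against the same vehicle tumors, which were also those of the comparison on which the set was selected.

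**Figure D3:**
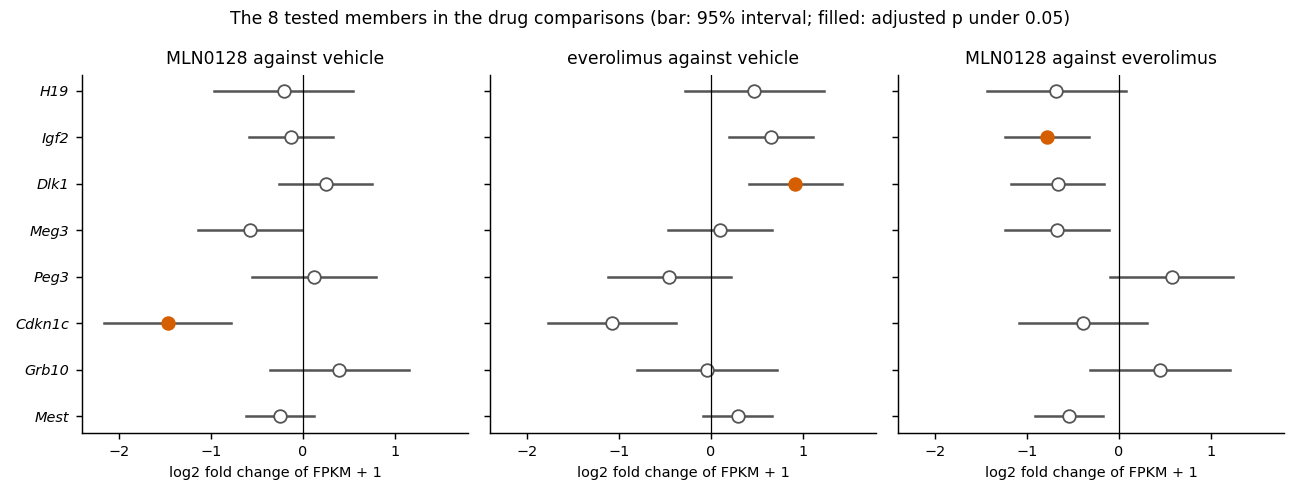
Log2 fold change in FPKM + 1 (x axis) of the 8 tested genes in the 3 drug comparisons, with 95% intervals from limma; filled points are past an adjusted p of 0.05. The filled points are *Cdkn1c* at -1.47 (left), *Dlk1* at 0.92 (middle) and *Igf2* at -0.78 (right).

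*Cdkn1c* was at 3.14, 4.28 and 2.13 FPKM with MLN0128 and at 5.14, 3.21 and 5 with everolimus. All 6 drug-treated tumors lay below the 3 vehicle tumors (6.05 to 16.8 FPKM) and above the 3 livers. Against vehicle the log2 fold change was -1.47 with MLN0128 (SE 0.318, 95% interval -2.17 to -0.78, limma's moderated test with Benjamini-Hochberg adjusted p = 0.00509) and -1.08 with everolimus (SE 0.318, limma's adjusted p = 0.0541). The difference between the drugs was -0.39 (interval -1.09 to 0.30, limma's adjusted p = 0.468).
With sex as a covariate the MLN0128 value was -1.86, which rests on MLN0128 replicate 3 alone. Over all alternatives limma's adjusted p ran from 0.00180 to 0.190. The call was lost only under limma's treat test, which asks for a fold change above 1.5. The background was 17.1% of all 14379 genes called lower and 14.9% called higher by limma, and 1 member of 8 was lower and 0 higher (0 higher at an unadjusted p under 0.05 too). With sex as a covariate the counts with MLN0128 rest on 1 tumor and are not given.
Some other fetal genes were lower with MLN0128 in the same tumors, though not *Lin28b* (log2 fold change 0.83, limma's adjusted p = 0.0595). Of 5 fetal hepatocyte markers (*Afp*, *Gpc3*, *Cd24a*, *Bex2* and *Lin28b*), 4 were lower, with a summed level of 308 to 401 FPKM against 1658 to 2313 with vehicle, and of 5 tested cholangiocyte markers 3 were lower (summed 16.6 to 32.8 against 41.8 to 96.7 FPKM). *Slc22a18* next to *Cdkn1c* was lower as well (log2 fold change -0.89, limma's adjusted p = 0.00787). The part of these cells in the result was not tested.

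*Dlk1* was at 1.23, 1.0 and 1.97 FPKM with everolimus, all above the vehicle tumors (0.0587 to 0.462), and at 0.442, 1.17 and 0.0591 with MLN0128, which spanned them. The log2 fold change with everolimus was 0.92 (SE 0.231, interval 0.41 to 1.42, limma's moderated test with Benjamini-Hochberg adjusted p = 0.0306), from 580 reads against 99. With MLN0128 it was 0.25 (interval -0.26 to 0.76, limma's adjusted p = 0.437), and between the drugs -0.67 (limma's adjusted p = 0.0907). By limma the background with everolimus was 3.77% of all genes higher and 6.04% lower, and 1 member was higher and 0 lower (2 and 1 at an unadjusted p under 0.05).
The call was not firm: it was lost in 10 of 26 alternatives, among them each vehicle library left out in turn (log2 fold changes of 1.03, 0.79 and 0.93 without vehicle replicate 1, 2 and 3) and everolimus replicate 1 or 3 left out (0.96 and 0.75). Limma's adjusted p ran from 0.00925 to 1 over all alternatives, and the value was 2.17 with a pseudocount of 0.1. Of 3 tested erythroid markers 1 was higher with everolimus, *Hba-a1*, an alpha globin gene, and their sum was 28.3 to 39.7 FPKM against 7.86 to 15.3 with vehicle. In the opposite direction to *Dlk1*, 3 of 5 tested cholangiocyte markers were lower with everolimus (*Krt19* -4.04, *Epcam* -1.66 and *Sox9* -1.02), with a sum of 21.2 to 66.2 FPKM against 41.8 to 96.7, and so were 2 of 5 fetal hepatocyte markers (*Afp* -2.4 and *Cd24a* -0.78), with a sum of 372 to 742 FPKM against 1658 to 2313. The part of these cells in the *Dlk1* value was not tested.

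*Igf2* was at 51.0, 67.9 and 33.1 FPKM with MLN0128 and at 89.0, 71.2 and 94.5 with everolimus. The 3 everolimus tumors lay above all vehicle and all MLN0128 tumors. Against everolimus the log2 fold change with MLN0128 was -0.78 (SE 0.207, interval -1.23 to -0.33, limma's moderated test with Benjamini-Hochberg adjusted p = 0.0381). Against vehicle it was -0.13 with MLN0128 (interval -0.58 to 0.33, limma's adjusted p = 0.675) and 0.66 with everolimus (interval 0.20 to 1.11, limma's adjusted p = 0.0659).
The call between the drugs was lost in 12 of 26 alternatives, including each normal liver, vehicle replicate 1 or 3, MLN0128 replicate 1 or 3 and everolimus replicate 1 or 3 left out, with values of -1.02 to -0.51. With sex as a covariate, from MLN0128 replicate 3 alone, it was -1.32 between the drugs, and the MLN0128 value against vehicle was -0.67. Over all alternatives limma's adjusted p between the drugs ran from 0.0116 to 1. By limma the background between the drugs was 5.52% of all genes lower with MLN0128 and 3.98% higher, and 1 member was lower and 0 higher (4 and 0 at an unadjusted p under 0.05). That background itself was not stable: the 1367 genes called became 182 without everolimus replicate 3, 212 without MLN0128 replicate 1 and 680 without everolimus replicate 1. In the same comparison 2 of 7 macrophage markers (*Cd5l* -1.56 and *Marco* -2.26), 2 of 3 erythroid markers (*Hba-a1* -2.30 and *Alas2* -0.75) and 1 of 5 fetal hepatocyte markers (*Gpc3* -1.35) were lower with MLN0128. Summed, the macrophage markers were at 24.9 to 36.1 FPKM with MLN0128 and 46.3 to 144 with everolimus, the erythroid at 6.08 to 9.84 and 28.3 to 39.7, and the fetal hepatocyte at 308 to 401 and 372 to 742, and their part in the *Igf2* value was not tested.

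*H19* did not pass in any drug comparison. It was at 3470, 6270 and 3010 FPKM with MLN0128 and 6980, 5140 and 7530 with everolimus, and the 3 tumor groups overlapped pairwise. The log2 fold changes were -0.21 with MLN0128 (interval -0.96 to 0.55, limma's adjusted p = 0.682), 0.47 with everolimus (-0.28 to 1.23, 0.414) and -0.68 between the drugs (-1.44 to 0.076, 0.233). With quantile normalization or a common sum of FPKM the MLN0128 value was 0.063 or 0.034, so its direction depended on the scaling.
*Peg3*, *Grb10*, *Meg3* and *Mest* did not pass either. Against vehicle their log2 fold changes were 0.12, 0.40, -0.57 and -0.25 with MLN0128 and -0.45, -0.05, 0.10 and 0.29 with everolimus. The *Grb10* value with MLN0128 had an interval of -0.36 to 1.16. It turned to -0.54 with sex as a covariate, which rests on MLN0128 replicate 3 alone. It passed at 0.87 without that replicate, where the MLN0128 tumors left were those with *Xist* and the vehicle tumors had none. *Meg3* was at 0.745, 0.571 and 0.307 FPKM with MLN0128 and 1.89, 0.997 and 1.53 with everolimus, which did not overlap (log2 fold change -0.68, limma's adjusted p = 0.119). Nor did *Mest*, at 0.705, 1.43 and 0.901 against 1.53, 2.41 and 1.81 FPKM (-0.54, limma's adjusted p = 0.0671).
Among the 8 tested members, the groups did not overlap for *Cdkn1c* with MLN0128, for *Cdkn1c*, *Dlk1* and *Igf2* with everolimus, and for *Igf2*, *Meg3* and *Mest* between the drugs. Of all tested genes, 45.5%, 32.4% and 27.7% did not overlap in these comparisons. The median log2 fold changes of the members were -0.17, 0.20 and -0.60, beside -0.0086, 0.034 and -0.028 over all tested genes.

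Of 53 other imprinted genes written down by parental expression, 39 were listed and 34 tested, 13 of them written down as paternally and 21 as maternally expressed. They split between tumor and liver: 12 lay above normal liver in all 3 vehicle tumors, 14 below and 8 overlapped. Of all tested genes 39.1% lay above and 35.1% below, so these counts do not set the list apart. The split holds for the authors' scaling alone. Of all genes called by limma between vehicle tumors and liver, 52.1% were higher in tumors with that scaling. The share was 85.0% with a common FPKM sum and 80.5% with voom on library totals. The greatest difference in log2(FPKM + 1) was that of *Peg10*, a retrotransposon-derived placental gene, and the next were *Phlda2* and *Igf2r*. *Peg10* had 0.0287 to 0.0417 FPKM in liver and 86.2 to 121 in the vehicle tumors. By ratio of means, vehicle over liver, *Zim1* (347) and *Usp29* (140) stood above *Phlda2* (89.9) and *Igf2r* (4.81). In liver *Zim1*, *Usp29* and *Phlda2* rested on 1, 2 and 6 reads. Their read-ratio intervals (63.4 to 14021, 39.2 to 1177 and 40.8 to 243, counting error only) overlapped, so the order among them is not settled. *Igf2r*, the maternally expressed receptor that clears IGF2, was at 5.38 to 6.79 FPKM in liver and 25.5 to 33.8 in the vehicle tumors. The lowest in log2(FPKM + 1) were *Dcn* (decorin, of the extracellular matrix, 43.0 to 62.3 against 3.44 to 5.11 FPKM), *Slc38a4*, an amino acid transporter (518 to 653 against 101 to 114), and *Slc22a3*, a cation transporter (2.91 to 3.64 against 0.0103 to 0.0380). Both written classes held genes on each side: 5 above and 5 below among those written down as paternally and 7 above and 9 below among those written down as maternally expressed. The class of a gene is that of the list, and which parental copy was read in these livers and tumors was not measured.

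**Figure D4:**
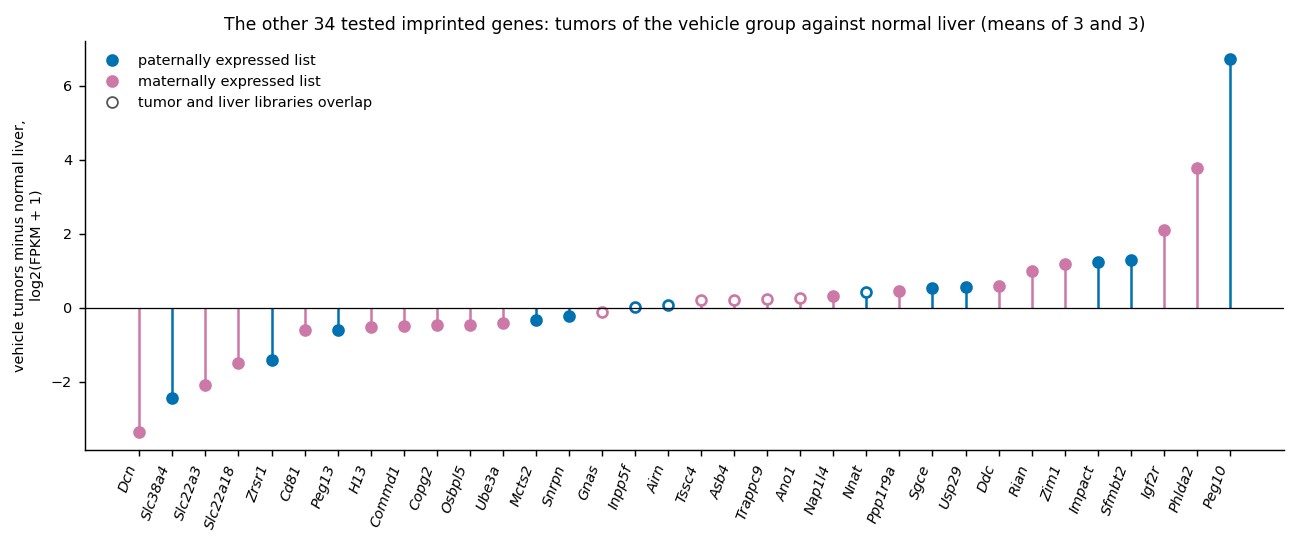
Difference between the means of 3 vehicle tumors and 3 normal livers in log2(FPKM + 1) (y axis) for the 34 tested imprinted genes outside the set (x axis), colored by the parental copy they are listed under; open points mark genes whose libraries overlap. The values run from -3.35 for *Dcn* to 6.71 for *Peg10*.

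With MLN0128, 3 of the 34 were higher than with vehicle and 6 lower, with everolimus 1 higher and 0 lower by limma (4 and 3 at an unadjusted p under 0.05), and between the drugs 2 higher and 4 lower. Over all tested genes the shares were 14.9% higher and 17.1% lower, 3.77% and 6.04%, and 3.98% and 5.52%, so the list as a whole is not set apart by its counts, and the genes named next are single values. *Ano1*, a chloride channel gene, was at 3.01 to 7.18 FPKM with MLN0128 against 0.479 to 1.16 with vehicle (log2 fold change 1.73, SE 0.314, limma's adjusted p = 0.00209). *Ppp1r9a*, which codes for an actin-binding regulator of protein phosphatase, was higher with both drugs (1.3, limma's adjusted p = 0.000224, and 0.67, limma's adjusted p = 0.0189).
*Phlda2* was lower with MLN0128 (5.11 to 6.44 FPKM) than with vehicle (log2 fold change -1.20, limma's adjusted p = 0.00169) and than with everolimus (-1.27, limma's adjusted p = 0.00850). *Rian* of the *Meg3* domain was lower with MLN0128 too, at 0.257 to 0.558 FPKM against 1.12 to 3.15 (-0.90, limma's adjusted p = 0.0237), where *Meg3* itself did not pass. *Ddc*, the decarboxylase next to *Grb10*, was lower with MLN0128 (-1.0, limma's adjusted p = 0.00328), and so was *Sfmbt2*, a Polycomb gene, whose vehicle tumors ran from 0.560 to 5.30 FPKM (-1.23, limma's adjusted p = 0.0401). *Commd1* passed between the drugs alone (-0.44, limma's adjusted p = 0.0452).

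Of 18 genes of the ligands, receptors and carriers around IGF2, 15 were tested, and 5 of them lay above normal liver in all vehicle tumors, 6 below and 4 overlapped, beside 39.1% above and 35.1% below of all tested genes. *Igf1*, the main postnatal ligand, was at 157 to 181 FPKM in normal liver and 1.24 to 2.77 in the vehicle tumors, in the opposite direction to *Igf2*. *Igfals*, which holds IGFs in the circulation, averaged 73.8 FPKM in liver and 1.70 in the vehicle tumors. *Igf1r* was low everywhere, with means of 0.144 to 0.281 FPKM, and *Igf2r* over *Igf2* in FPKM ran from 0.297 to 0.935 in the 9 tumors.
With MLN0128 3 of the 15 were higher and 2 lower than with vehicle, with everolimus 2 higher and 1 lower, and between the drugs 0 higher and 1 lower (*Irs1*, -0.49, limma's adjusted p = 0.0422; 1 and 3 at an unadjusted p under 0.05), against the shares of all genes given above. *Igfbp2*, a binding protein, was at 342 to 498 FPKM in liver, 18.5 to 47.6 in vehicle tumors, 43.2 to 170 in MLN0128 tumors and 144 to 184 in everolimus tumors (log2 fold changes of 1.32, limma's adjusted p = 0.0377, and 2.40, limma's adjusted p = 0.00670). *Igf2bp2*, an RNA-binding protein of *Igf2* transcripts, was at 0.536 to 1.29 FPKM with vehicle and lower with both drugs (-0.74, limma's adjusted p = 0.00194, and -0.78, limma's adjusted p = 0.00509).
*Igfbp3* was lower with MLN0128 (-0.98, limma's adjusted p = 0.0459) and *Igfbp4* higher (0.53, limma's adjusted p = 0.0328). *Igfbp1*, *Igfbp5*, *Igf1* and *Lin28b* did not pass with MLN0128 (-1.29, -0.47, 0.42 and 0.83). *Igf2bp3*, the fetal relative of *Igf2bp2*, averaged 0.338 FPKM in liver and 5.03, 4.90 and 6.57 in the 3 tumor groups.

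Of 20 genes that keep or read imprints or repress fetal liver genes after birth, 18 were listed and 15 tested. Between vehicle tumors and normal liver 9 lay above, 4 below and 2 overlapped, beside 39.1% above and 35.1% below of all tested genes. Maintenance methylation genes were among those above, with mean FPKM of 1.46 and 10.5 for *Dnmt1* and 0.238 and 12.3 for *Uhrf1*, and *Zbtb20* and *Zhx2*, the postnatal repressors of *Afp* and, for *Zhx2*, of *H19*, were among those below (means of 5.81 and 1.51 FPKM, and 4.31 and 2.12). The *Zhx2* difference rested on the authors' scaling. Its recovered reads were 615 in the livers and 619 in the vehicle tumors, where libraries held 17854025 to 18595334 and 18704268 to 20348749 reads. *Zbtb20* had 5740 and 3078 reads. *Zfp445*, named below as a gene that protects imprints, lay below as well (means of 28.3 and 8.51 FPKM), and *Zfhx3* of the same list overlapped (0.818 and 0.687). *Ctcf* averaged 8.24 FPKM in liver and 11 in the vehicle tumors. The 4 proliferation markers summed to 1.22 to 4.55 FPKM in liver and 66.1 to 83.4 in the vehicle tumors, and their part in these differences was not tested.
With MLN0128 4 of the 15 were higher and 0 lower, and with everolimus also 4 and 0, while 0 passed between the drugs by limma's moderated test. At an unadjusted p under 0.05 these counts were 6 and 0, 7 and 1, and 3 in either direction. The shares of all genes called were 14.9% higher and 17.1% lower with MLN0128, and 3.77% and 6.04% with everolimus. *Arid4a*, a chromatin gene, was at 2.49 to 2.87 FPKM with vehicle and higher with both drugs (0.66, limma's adjusted p = 0.000979, and 0.63, limma's adjusted p = 0.00418). *Dnmt3b*, a de novo methyltransferase, was higher with both (0.65, limma's adjusted p = 0.00966, and 0.83, limma's adjusted p = 0.00845), as was *Tet3*, a methylcytosine oxidase (0.42, limma's adjusted p = 0.0145, and 0.47, limma's adjusted p = 0.0243). *Zfp445*, which protects imprints, was higher with MLN0128 (0.61, limma's adjusted p = 0.0193), and *Ezh2*, the Polycomb methyltransferase, with everolimus (0.69, limma's adjusted p = 0.0107). *Trim28*, *Uhrf1* and *Tet2* had values of 0.32, -0.37 and 0.39 with MLN0128 and did not pass.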

How the data were processed

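RNA-seq of 3 normal livers and 9 tumors (3 mice per group) was analyzed from the authors' deposited FPKM, which are linear and rounded to 3 significant digits. Per the study's methods, reads were counted per Ensembl gene and differential expression was called from counts against a minimum fold change. Per the submitters' processing notes the build was GRCm38 and FastQC 0.11.7 was used; the aligner is not given in the sources used here. Of 17007 symbols, 22 turned into dates were left out, and 16871 matched 1 gene of the GENCODE M21 annotation of GRCm38. FPKM multiplied by exon length gave whole reads, which covered depth and counting intervals.
Genes that reached 0.5 FPKM in 3 or more of 12 libraries were fitted as log2(FPKM + 1) with limma 3.58.1 in R 4.3.3, in 1 model of 4 groups with an intensity trend, and called by the moderated test at a Benjamini-Hochberg adjusted p under 0.05 over all 14379 genes. Because FPKM are not counts, no count test was the main test. The scripts were tested on simulated data. Tables used pandas 2.3.3 and figures matplotlib 3.10.9.
The 10 genes and the other lists were chosen with earlier results of these data known. Named genes were the 10 members, other imprinted genes called with a drug (up to 6 per comparison by size) or with the 3 greatest or 3 least differences between tumor and liver, up to 8 genes of the IGF and imprint lists by the size of the MLN0128 difference, the 3 genes most like *H19*, *Igf2* and *Dlk1* (1 of them is not reported here), and up to 4 neighbors within 200 kb. *Igfals*, *Igf1r*, *Igf2bp3*, *Irs1*, *Ctcf*, *Dnmt1*, *Zbtb20*, *Zhx2*, *Zfhx3*, *Alb* and *Hba-a1* were named after their values were seen. The cell type markers were written by hand and are given as counts and sums. Replicate numbers did not pair the samples. Alternatives covered the pseudocount, filter, scaling, libraries, prior, test, replicate block, sex and each library left out; the 10 male libraries alone were added after seeing the data.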

Additional observations from a re-analysis of the deposited data

How the results depend on the processing

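In 26 alternatives per comparison, the *Cdkn1c* call with MLN0128 was lost with limma's treat test at a fold change of 1.5, which left 0 members in all 3 drug comparisons. The number called with MLN0128 is not given with sex as a covariate or with the 10 male libraries alone, since both leave 1 MLN0128 tumor. With everolimus it was 0 with a pseudocount of 0.1, with the 9 tumors alone and with the replicate block, 2 with quantile normalization and the male libraries, and 3 with a common FPKM sum, sex as a covariate, and voom on recovered reads with library totals. Between the drugs it was 0 with the tumors alone and the replicate block, and 2 with quantile normalization and voom with the authors' scaling. With 1 library left out the 3 counts ran from 1 to 2, 0 to 3 and 0 to 3. The count of 2 with MLN0128 came without MLN0128 replicate 3. With everolimus it was 0 without vehicle replicate 1 or 3 or everolimus replicate 1 or 3, and 3 without MLN0128 replicate 3. Between the drugs it was 0 without any 1 normal liver, vehicle replicate 3, MLN0128 replicate 1 or everolimus replicate 1 or 3, and 3 without MLN0128 replicate 2.
The replicate block left 1 member called with MLN0128, 0 with everolimus and 0 between the drugs; same-numbered libraries correlated with r of -0.289 to 0.148 in 18 pairs, 1 of them over 0.1, so the numbers did not pair the mice. These directions turned, none past the threshold: with MLN0128, *H19* was 0.063 and *Igf2* 0.16 with quantile normalization, 0.034 and 0.11 with a common sum, and *Igf2* 0.019 with library totals. With sex as a covariate or the male libraries alone, both from MLN0128 replicate 3 only, *Dlk1* was -0.24, *Peg3* -0.044 and *Grb10* -0.54 with MLN0128. *Grb10* was -0.49 between the drugs. *Grb10* with everolimus was 0.0050 with quantile normalization. With 1 library left out, MLN0128 values ran from -0.53 to 0.0039 for *H19*, -0.36 to 0.14 for *Igf2*, -0.021 to 0.50 for *Dlk1* and -0.11 to 0.37 for *Peg3*, and everolimus values from -0.090 to 0.43 for *Meg3* and -0.31 to 0.18 for *Grb10*. The cause of these changes was not tested.
A common FPKM sum moved the median of all genes to 0.17 with MLN0128 and 0.80 between vehicle tumors and liver, and with it 73.6% of the calls with MLN0128 were higher, against 46.6% as reported. Between the drugs these shares were 87.1% and 41.9%, and between vehicle tumors and liver 85.0% and 52.1%. Members above all livers in all vehicle tumors numbered 8 with a common sum, 6 with quantile normalization, and 7 to 8 with 1 library left out. The number of all genes called was 4598 with MLN0128, 1411 with everolimus and 1367 between the drugs. It was 306, 87 and 6 with treat, and with everolimus it was 1668 with sex as a covariate. Between the drugs the replicate block left 814. Leaving out vehicle replicate 1 or 3 gave 707 or 566 with everolimus, and leaving out everolimus replicate 1 or 3 gave 535 or 852. With MLN0128 it was 3022 without MLN0128 replicate 1. Depth limited *Igf2*, *Dlk1*, *Usp29* and *Zim1* in liver, where 3 or fewer reads were found.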
